A study of Mus musculus with 6 samples.

Results

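Genes of mitosis and of the passage from G2 into mitosis were followed in mouse embryonic stem cells (mESC) in which Ezh2 was to be deleted. The set holds 53 genes, chosen by their known roles and found in the deposited table by Ensembl identifier, out of 22933 genes in the table. They cover 12 roles: mitotic cyclins with Cdk1, the phosphatases and the kinases that switch Cdk1 on and off, 2 transcription factors, the spindle checkpoint, anaphase promotion, Aurora and Polo kinases with the chromosomal passenger complex, kinesins, the kinetochore, spindle assembly, cytokinesis, and chromosome condensation. Of the 53 genes, 51 had at least 10 reads on average and were tested, among 11847 genes tested in all.

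Total RNA was sequenced from Ezh2 fl/fl cells, 3 libraries after 4-hydroxytamoxifen and 3 libraries from untreated cells. The tamoxifen libraries, labelled Ezh2 KO, came from cells given 800 nM of the drug for 96 h, and their RNA was taken 4 days after treatment. The untreated libraries, labelled Ezh2 wild type, carry the same floxed alleles and had no drug, so effects of tamoxifen itself cannot be told apart from effects of the deletion. Both groups grew on gelatin in serum medium with leukaemia inhibitory factor. The labels used here do not name the Cre driver, the number of clones, or whether the replicates were separate cultures, so p-values measure the spread between these libraries only.

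Entry into mitosis is driven by Cdk1 bound to cyclin B, held back by Wee1 and Pkmyt1 and released by Cdc25 phosphatases. The spindle checkpoint then blocks Cdc20, the activator of the anaphase promoting complex, until every kinetochore is attached. Many genes of this programme are transcribed late in the cell cycle under B-Myb, FoxM1 and the MuvB complex, which act through CHR elements, while NF-Y binds CCAAT boxes in the same promoters. Embryonic stem cells divide fast, with a short G1 phase.

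The promoters of the set hold these 2 elements in a larger share than promoters at large, a description of a feature that played no part in choosing the genes. RefSeq promoter windows on GRCm38.p6, from 250 bases before to 50 bases after the transcript start, were matched by symbol for 42 of the 53 genes. A CHR element (TTTGAA or TTCGAA on either strand) was found for 30 of the 42 genes, or 71.4%, against 21.7% of the 27025 genes with a window. A CCAAT box on either strand was found for 29 genes, or 69.0%, against 41.1% of all genes. Both elements stood in 1 window for 26 genes, or 61.9%, against 8.61% of all genes. Where windows of a gene overlapped, each site in the genome was counted once, at its distance from the nearest start. Of 40 such CHR sites, 29 began within 50 bases of the start, and the median site began 1.5 bases before it. The median of 61 CCAAT boxes began 58 bases before the start. A match is a description of the letters and not a binding site. Only 1 pair of neighbouring sites shared bases.

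**Figure D1:**
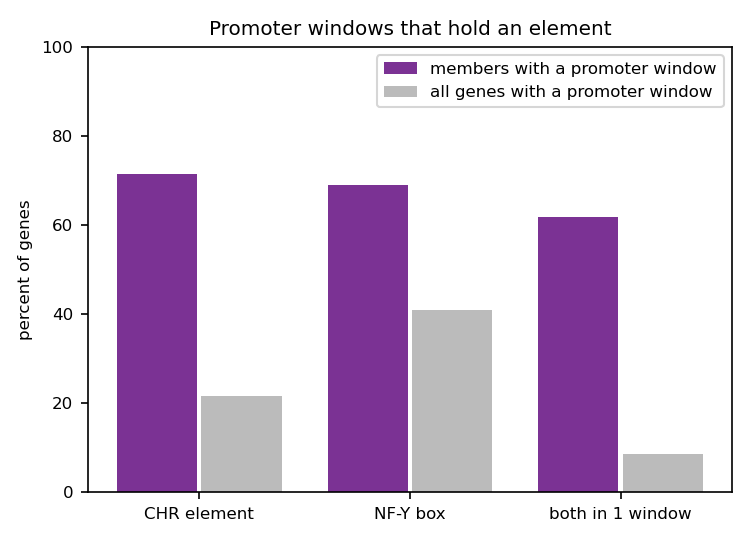
Percent of genes (vertical axis, from 0 to 100) whose promoter window holds a CHR element, an NF-Y box (CCAAT) or both in 1 window, for the 42 mitosis genes with a window (purple) and for all 27025 genes with a window (grey). The purple bars reach 71.4%, 69.0% and 61.9%, and the grey bars 21.7%, 41.1% and 8.61%.

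The 5 windows shown here span the range of this architecture among genes described below, and capitals mark the CHR elements and the CCAAT boxes. A CHR element reads TTTGAA, or TTCAAA when it lies on the other strand. Its second form, TTCGAA, reads alike on both strands. A box on the other strand reads ATTGG. The Ccnb2 window (chr9:70421505-70421804, minus strand) holds 2 CHR elements and 3 CCAAT boxes. The Cdc20 window (chr4:118437294-118437593, minus strand) holds 1 CHR element and 2 CCAAT boxes. The Top2a window (chr11:99024140-99024439, minus strand) is the densest of the 5, with 4 CHR elements and 6 CCAAT boxes. The Gtse1 window (chr15:85859457-85859756, plus strand) holds 3 CCAAT boxes and neither CHR sequence. The Plk4 window (chr3:40799701-40800000, plus strand) holds neither element, which says only that these letters are not in this window.
Ccnb2: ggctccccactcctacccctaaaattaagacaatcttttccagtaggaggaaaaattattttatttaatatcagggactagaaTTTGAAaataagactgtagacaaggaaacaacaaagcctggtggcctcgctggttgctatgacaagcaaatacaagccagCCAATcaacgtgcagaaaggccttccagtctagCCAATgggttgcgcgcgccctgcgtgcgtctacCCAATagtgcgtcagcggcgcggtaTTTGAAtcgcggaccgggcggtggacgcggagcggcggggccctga
Cdc20: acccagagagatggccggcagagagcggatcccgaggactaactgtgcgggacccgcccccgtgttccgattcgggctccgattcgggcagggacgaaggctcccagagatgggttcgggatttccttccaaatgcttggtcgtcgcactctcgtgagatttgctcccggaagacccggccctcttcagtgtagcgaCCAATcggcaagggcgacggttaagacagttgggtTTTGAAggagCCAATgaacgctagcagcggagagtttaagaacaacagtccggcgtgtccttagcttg
Top2a: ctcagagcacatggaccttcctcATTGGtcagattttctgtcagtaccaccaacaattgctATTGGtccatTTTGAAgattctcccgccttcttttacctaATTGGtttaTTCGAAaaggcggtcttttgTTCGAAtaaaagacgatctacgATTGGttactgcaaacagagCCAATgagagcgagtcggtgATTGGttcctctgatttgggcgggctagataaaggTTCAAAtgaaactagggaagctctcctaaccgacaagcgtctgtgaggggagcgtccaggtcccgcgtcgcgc
Gtse1: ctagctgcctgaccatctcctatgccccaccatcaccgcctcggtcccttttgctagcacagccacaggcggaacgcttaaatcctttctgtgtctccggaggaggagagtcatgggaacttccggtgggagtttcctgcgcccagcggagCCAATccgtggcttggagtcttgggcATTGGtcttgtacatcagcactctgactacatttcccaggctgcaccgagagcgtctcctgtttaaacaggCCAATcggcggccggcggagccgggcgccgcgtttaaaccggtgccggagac
Plk4: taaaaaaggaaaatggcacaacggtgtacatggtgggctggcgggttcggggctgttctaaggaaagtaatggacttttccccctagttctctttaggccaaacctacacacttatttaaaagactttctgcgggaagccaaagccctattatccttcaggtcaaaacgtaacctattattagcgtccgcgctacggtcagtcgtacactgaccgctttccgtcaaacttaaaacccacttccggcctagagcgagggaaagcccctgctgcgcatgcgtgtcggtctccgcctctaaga

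Sequencing depth was 3847167, 2334418 and 5111706 recovered reads in tamoxifen libraries 1 to 3, against 3856554, 5689696 and 2676802 in untreated libraries 1 to 3. Recovered reads are whole numbers worked back from the deposited values, which are a normalized signal and not counts. That these numbers are the read counts is an assumption, on which the depths, the RPKM levels and the read minimum rest. Ezh2, the targeted gene (ENSMUSG00000029687, chromosome 6, 47530139 to 47595341 on GRCm38, minus strand), had deposited values of 2258, 2559 and 2609 after tamoxifen, against 4165, 3620 and 3483 in untreated cells. The groups did not overlap, and the tamoxifen mean was 65.9% of the untreated mean. Its log2 fold change was -0.60 (95% interval -0.91 to -0.29, limma adjusted p 0.157, exact permutation p 0.1, the smallest that 3 against 3 libraries allow), -0.13 on recovered reads, where the median of all genes was 0.25, and -0.40 once those reads had trimmed mean scaling. The values count the whole gene, so they do not measure the deletion itself. Of the stem cell markers, all 10 were tested and 0 were called, with summed values of 83017 to 86844 after tamoxifen and 72578 to 102856 in untreated cells. Of the 10, 4 were above 0. Nanog and Tfcp2l1 were higher without overlap (log2 fold change 0.57 and 0.70), and Zfp42 was lower without overlap (-0.26). Summed values of 13 endoderm markers were 35275 to 43518 after tamoxifen, against 16853 to 21339 in untreated cells, with 10 of 10 tested markers above 0 and 0 called. Those of 10 fibroblast or feeder markers were 6220 to 8772 after tamoxifen, against 4092 to 7651 in untreated cells, with 5 of 5 tested above 0, 0 called and Lum at 0 in every library. The part of these other cell types in the mitosis values was not tested. In bulk RNA, fewer cells of a type and less RNA per cell cannot be told apart.

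No mitosis gene passed the test, and the 2 groups were close for most of the set. None of the 51 tested genes was called by limma at a Benjamini-Hochberg adjusted p under 0.05, where 15 of all 11847 genes, or 0.127%, were called, and the smallest adjusted p among the 51 was 0.260. The 15 calls over all genes dropped to 0 or 1 whenever a single library was left out. At an unadjusted p under 0.05 there were 2 mitosis genes, Gtse1 above its untreated level and Kif2c below it, where 6.85% of all genes were higher and 5.12% lower. Limma on recovered reads, with or without trimmed mean scaling, also called 0 of the 51. In the main fit on deposited values every estimate lay within 1.5-fold, from 71.5% to 134% of the untreated mean by group means. Other fits reached further. The lowest log2 fold change was -0.69 on recovered reads with trimmed mean scaling and -0.65 without untreated replicate 2. The highest was 1.34, without untreated replicate 3.

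The intervals say how much difference these libraries could have missed. The 95% interval of the log2 fold change lay inside 1 in either direction, a 2-fold change, for 45 of the 51 genes (88.2%, against 72.7% of all genes tested). It lay inside 0.5 for 20 genes (39.2%, against 19.8%). The 6 genes whose interval reached past 2-fold were Nusap1, Cenpf, Cenpe, Top2a, Ect2 and Ncapd2. The median absolute log2 fold change was 0.14 for the set and 0.21 for all genes, and the median standard error was 0.167 and 0.210.

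**Figure D2:**
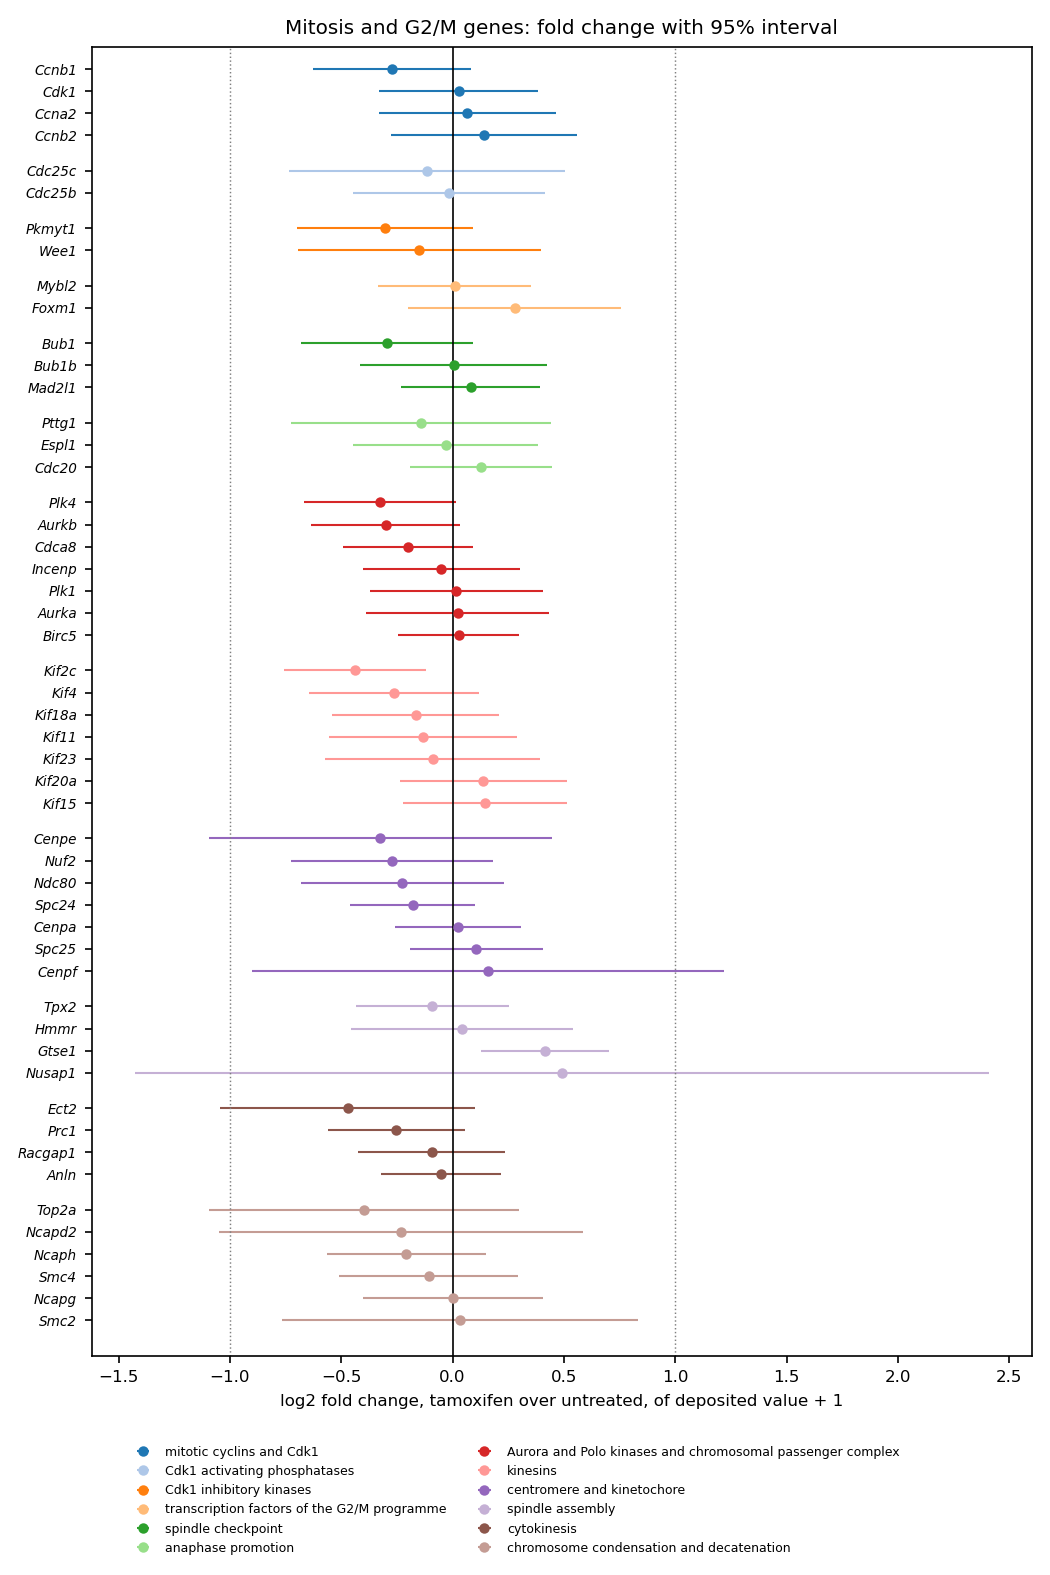
Log2 fold change of deposited value + 1, tamoxifen over untreated (horizontal axis), for the 51 tested mitosis genes ordered by role (colours). Points are limma estimates, bars are 95% intervals from 3 against 3 libraries, and dotted lines mark 2-fold. Only the intervals of Gtse1 and Kif2c leave out 0, and 45 of the 51 lie between the dotted lines.

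The estimates leaned slightly to the lower side. The median log2 fold change was -0.09, with 30 of 51 genes below 0 (58.8%), where the median of all genes was -0.01 and 51.7% were below 0. Groups did not overlap, with tamoxifen lower, for 7 of the 51 genes (13.7%, against 8.89% of all genes). Of these 7, Kif4 was parted only by 1138.9 against 1139.2, in effect a tie. They did not overlap, with tamoxifen higher, for 1 gene (1.96%, against 9.49%). The lean was smallest without tamoxifen replicate 2, where the median was -0.02, as for all genes, with 26 of 51 below 0. The median of the set was -0.05 without untreated replicate 1 and -0.05 without untreated replicate 3 (all genes 0.00 and -0.03). Without any other library it was -0.10 to -0.14. On recovered reads without trimmed mean scaling the median of all genes moved to 0.25 and that of the set to 0.12, and 20 of the 51 estimates changed sign. With trimmed mean scaling of those reads the median was -0.15 and 39 of 51 were below 0. Below 0 by role, the Aurora, Polo and passenger genes went from 4 to 7 of 7. The cyclins with Cdk1 went from 1 to 4 of 4, and anaphase promotion from 2 to 3 of 3. The kinetochore went from 4 to 5 of 7, the spindle checkpoint from 1 to 2 of 3, and the transcription factors from 0 to 1 of 2. Cytokinesis fell from 4 to 3 of 4, and the other roles kept their counts.

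The libraries differed more than the groups did. The share of all recovered reads that fell on the 53 genes was 0.557%, 0.706% and 0.699% in the tamoxifen libraries, against 0.839%, 0.684% and 0.490% in the untreated libraries. The means were 0.654 ± 0.0839% after tamoxifen and 0.671 ± 0.175% in untreated cells (SD, n = 3 each), and the untreated libraries held both the highest and the lowest share. Tamoxifen replicate 2 had the lowest value of the 6 for 18 of 51 genes, or 35.3%, where 17.9% of all genes were lowest there. Untreated replicate 1 had the highest value for 17 of the 51, or 33.3%, where 18.5% of all genes were highest there. In untreated replicate 1 the deviation from a gene's mean went with its exon length (Spearman rho 0.47 across the 51 genes), and in tamoxifen replicate 3 and untreated replicate 2 it ran the other way (rho -0.36 and -0.31). These correlations are descriptions across genes that share a library.

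**Figure D3:**
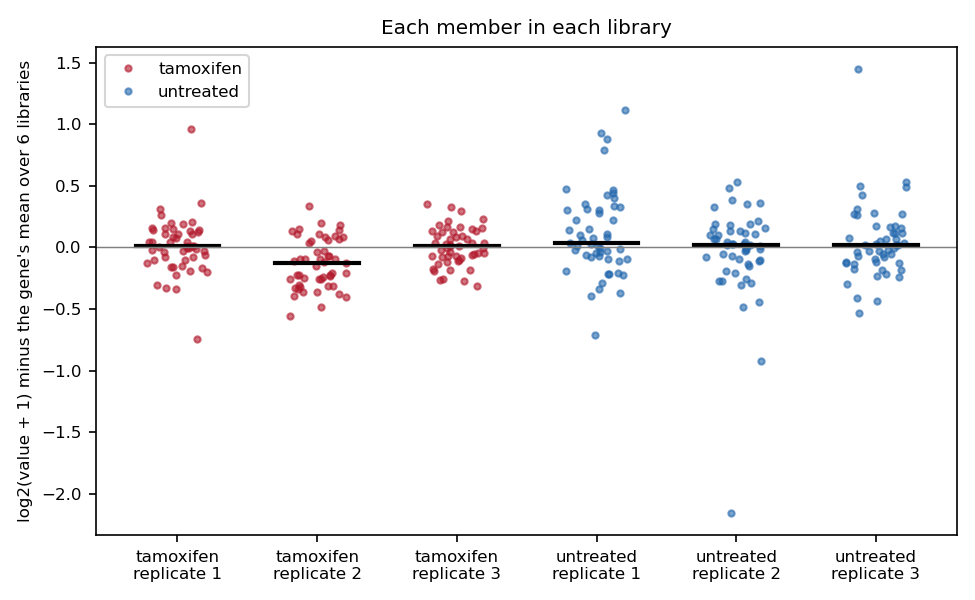
Each of the 51 tested genes in each library, as log2(value + 1) minus the gene's mean over the 6 libraries (vertical axis), with tamoxifen in red, untreated in blue and the median as a black bar. The medians lie between -0.13 in tamoxifen replicate 2 and 0.03 in untreated replicate 1, and the widest points belong to Nusap1 and to genes high in untreated replicate 1.

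By level, the set is abundant in these cells. Reads per kilobase of exon, scaled to the recovered reads of each library (RPKM), had a median of 17.4 over the 51 tested genes, against 4.96 over the 11499 tested genes with a length, and 84.1% of those genes lay below the median of the set. Top2a, the topoisomerase that untangles sister chromatids, stood at 103 ± 1.83 after tamoxifen and 116 ± 32.0 in untreated cells on this scale (SD, n = 3 each). Ncapd2, a condensin I subunit, stood at 95.4 ± 6.49 after tamoxifen and 119 ± 31.6 in untreated cells. The neighbours Top2a and Ncapd2 did not differ beyond their spread. Cdc20 at 71.3 ± 15.95 after tamoxifen and 64.4 ± 21.3 in untreated cells, and Mybl2 at 65.8 ± 9.87 after tamoxifen and 69.5 ± 17.6 in untreated cells, came next without a clear order. By the mean over all 6 libraries, the lowest tested genes were the inhibitory kinase Pkmyt1 at 2.87 ± 1.001 after tamoxifen and 3.69 ± 0.212 in untreated cells, and Cdc25b at 3.55 ± 0.960 after tamoxifen and 3.17 ± 0.520 in untreated cells. Foxm1, at 4.14 ± 0.774 after tamoxifen and 3.04 ± 0.288 in untreated cells, was the lowest in untreated cells alone. Ncapd2 holds the small RNA gene Scarna10 and Top2a a snoRNA gene on the same strand, neither with a row of its own in the table, so such reads could be counted with the host.

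**Figure D4:**
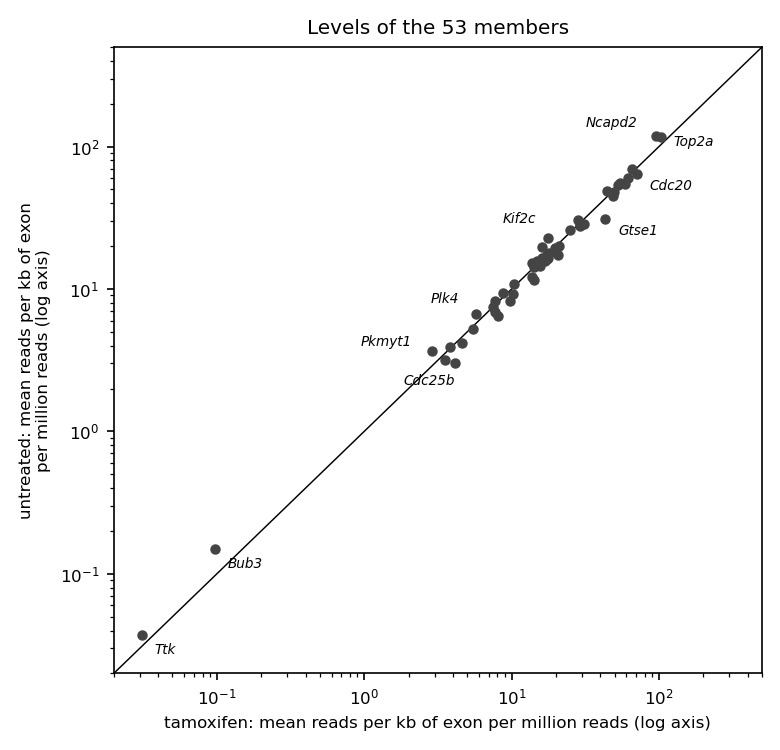
Mean level of each of the 53 genes in RPKM, tamoxifen (horizontal log axis) against untreated (vertical log axis), with the line of equal levels. All points lie near the line, from Ttk and Bub3 at the bottom to Top2a and Ncapd2 at the top.

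Among the mitotic cyclins and Cdk1, the groups overlapped for all 4 genes. Ccnb1, cyclin B1 (chromosome 13, 100778650 to 100786570, minus strand), had 5722, 4612 and 5576 after tamoxifen, against 5498, 6715 and 7014 in untreated cells. Untreated replicates 2 and 3 exceeded all tamoxifen values, but untreated replicate 1 lay within their range (log2 fold change -0.27, 95% interval -0.63 to 0.08, limma adjusted p 0.530). Ccnb2, cyclin B2, the most abundant of the 4 per kilobase and a gene with both promoter elements, had 4748, 3775 and 4029 after tamoxifen, against 4204, 4292 and 2986 in untreated cells. Its groups overlapped throughout (0.14, interval -0.28 to 0.56). Cdk1, the kinase itself, ranged over 10227 to 12923 after tamoxifen and 10412 to 12924 in untreated cells. Ccna2, cyclin A2, ranged over 4427 to 6705 after tamoxifen and 4777 to 5411 in untreated cells.

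The switches on Cdk1 also overlapped between groups. Pkmyt1, which phosphorylates Cdk1 at the membrane, had 1474, 1678 and 1770 after tamoxifen, against 2002, 1682 and 2447 in untreated cells. The lowest untreated value lay within the tamoxifen range (log2 fold change -0.30, 95% interval -0.70 to 0.09, limma adjusted p 0.528). Wee1, the nuclear inhibitory kinase, had 1265, 1654 and 1674 after tamoxifen, against 1236, 1713 and 2256 in untreated cells. The Wee1 estimate was -0.15 (interval -0.70 to 0.40). Cdc25c, which removes those phosphates, had 876, 564 and 876 after tamoxifen, against 623, 798 and 1108 in untreated cells, and the untreated values spanned the wider range (-0.12, interval -0.74 to 0.50). Cdc25b, a related phosphatase, ranged over 582 to 847 after tamoxifen and 739 to 759 in untreated cells.

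Of the 2 transcription factors, Foxm1 had 1284, 1322 and 1323 after tamoxifen, against 973, 876 and 1477 in untreated cells. The tamoxifen values sat close together between the untreated ones (log2 fold change 0.28, 95% interval -0.20 to 0.76, limma adjusted p 0.643). Mybl2, which encodes B-Myb, had 14422, 16718 and 15639 after tamoxifen, against 15638, 17274 and 13681 in untreated cells. The groups overlapped throughout (0.01, interval -0.33 to 0.35).

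In the spindle checkpoint, 3 of 5 genes had enough reads. Bub1, a kinetochore kinase, had 3367, 3260 and 3582 after tamoxifen, against 5207, 3951 and 3521 in untreated cells. The groups overlapped at the third untreated library (log2 fold change -0.29, 95% interval -0.68 to 0.09, limma adjusted p 0.531). Bub1b, which encodes the checkpoint protein BubR1, had 8096, 6024 and 8681 after tamoxifen, against 6423, 8311 and 7862 in untreated cells (0.00, interval -0.42 to 0.43). Mad2l1, the Mad2 subunit that binds Cdc20, ranged over 2909 to 3717 after tamoxifen and 3092 to 3279 in untreated cells. Bub3 had only 4, 1 and 3 reads after tamoxifen and 5, 4 and 3 in untreated cells, and Ttk, the Mps1 kinase, had 1, 0 and 1 after tamoxifen and 0, 1 and 1 in untreated cells. Both fell below the read minimum, and no fold change is given for them. Whether their transcripts were scarce or their reads went uncounted was not tested.

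The groups overlapped for all 3 genes of anaphase promotion. Cdc20 had 7667, 8309 and 8564 after tamoxifen, against 6831, 8564 and 7160 in untreated cells, an overlap at the top of both groups (log2 fold change 0.13, 95% interval -0.19 to 0.45, limma adjusted p 0.755). Espl1, the separase that cuts cohesin, ranged over 5002 to 6559 after tamoxifen and 4847 to 7103 in untreated cells (-0.03, interval -0.45 to 0.39). Pttg1, the securin that holds separase, ranged over 1362 to 2083 after tamoxifen and 1353 to 2482 in untreated cells (-0.14, interval -0.72 to 0.44).

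Within the Aurora and Polo kinases and the chromosomal passenger complex, 3 of 7 genes had all tamoxifen values below all untreated values. That is 42.9%, against 8.89% of all genes tested. Plk4, the kinase of centriole duplication (chromosome 3, 40800019 to 40816883, plus strand), had 1537, 1518 and 1304 after tamoxifen, against 2073, 1752 and 1653 in untreated cells. Its means were 1453 ± 129 after tamoxifen and 1826 ± 220 in untreated cells (SD, n = 3 each), with a log2 fold change of -0.33 (95% interval -0.67 to 0.01, limma adjusted p 0.435). Aurkb, the catalytic subunit of the passenger complex (chromosome 11, 69045647 to 69051664, plus strand), had 3026, 2276 and 2880 after tamoxifen, against 3230, 3426 and 3346 in untreated cells. Tamoxifen replicate 2 lay furthest below, and the 3 untreated values were tight (-0.30, interval -0.64 to 0.04, limma adjusted p 0.465). Cdca8, the borealin subunit, had 2939, 2783 and 3299 after tamoxifen, against 3348, 3659 and 3337 in untreated cells, a narrow separation (-0.20, interval -0.49 to 0.09, limma adjusted p 0.583). The remaining subunits of the same complex did not share the separation. Birc5, survivin, ranged over 2910 to 3240 after tamoxifen and 2898 to 3055 in untreated cells, and Incenp, the scaffold, over 2900 to 3522 after tamoxifen and 2881 to 3736 in untreated cells. The spindle pole kinase Aurka had 7979, 7015 and 10082 after tamoxifen, against 7094, 8194 and 9262 in untreated cells (0.02, interval -0.39 to 0.43). Plk1, the main Polo kinase of mitosis, ranged over 3259 to 4087 after tamoxifen and 3221 to 4475 in untreated cells.

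Among the 7 kinesins, Kif2c stood lowest. Kif2c, the microtubule depolymerase MCAK (ENSMUSG00000028678, chromosome 4, 117159639 to 117182639, minus strand), had 2277, 2394 and 2706 after tamoxifen, against 3173, 3737 and 3094 in untreated cells. All 3 tamoxifen values lay below all 3 untreated values, with means of 2459 ± 222 after tamoxifen and 3335 ± 351 in untreated cells (SD, n = 3 each). The log2 fold change was -0.44 ± 0.137 (SE, 95% interval -0.76 to -0.12), and the limma adjusted p over all genes was 0.275. Kif4, a chromokinesin on the X chromosome, had 1138.9, 905 and 1061 after tamoxifen, against 1139.2, 1450 and 1148 in untreated cells. Its groups were separated by less than 1 unit, in effect a tie (-0.26, interval -0.65 to 0.12). On recovered reads the Kif4 estimate was 0.24, where the median of all genes was 0.25. With trimmed mean scaling of those reads it was -0.03. Kif20a, which acts in cytokinesis and was the most abundant kinesin per kilobase, had 11463, 11015 and 9255 after tamoxifen, against 9712, 11016 and 8192 in untreated cells (0.14, interval -0.24 to 0.51). The estimates of the other kinesins, the spindle motors Kif11 and Kif15, the central spindle motor Kif23 and the length regulator Kif18a, lay between -0.17 and 0.15, and each had overlapping groups.

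At the centromere and kinetochore, 1 of 7 genes was separated (14.3%, against 8.89% of all genes with tamoxifen lower). Spc24, a subunit of the Ndc80 complex, had 2441, 2450 and 2500 after tamoxifen, against 3054, 2666 and 2662 in untreated cells. The 3 tamoxifen values were tight and all lower (log2 fold change -0.18, 95% interval -0.46 to 0.10, limma adjusted p 0.610). Its partners in the complex had overlapping groups, with estimates of -0.23 for Ndc80, -0.27 for Nuf2 and 0.11 for Spc25. Cenpa, the centromeric histone, had 4593, 4184 and 4749 after tamoxifen, against 4145, 4691 and 4455 in untreated cells (0.02, interval -0.26 to 0.31). Cenpf, a large coiled-coil protein of the outer kinetochore, had 4204, 4272 and 4428 after tamoxifen, against 8797, 2151 and 3016 in untreated cells. The tamoxifen values lay inside a 4.09-fold untreated range, with untreated replicate 1 far above the rest. Cenpe, a kinetochore motor, had the same high library, with 1577, 1188 and 1353 after tamoxifen, against 2910, 1090 and 1566 in untreated cells.

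Spindle assembly held the 1 gene of the set that stood higher without overlap, where 9.49% of all genes did. Gtse1, a microtubule-binding protein that also restrains p53 (ENSMUSG00000022385, chromosome 15, 85859745 to 85876573, plus strand), had 5410, 6256 and 5576 after tamoxifen, against 4272, 4068 and 4572 in untreated cells. Its means were 5748 ± 448 after tamoxifen and 4304 ± 254 in untreated cells (SD, n = 3 each), and every tamoxifen value exceeded every untreated one. The log2 fold change was 0.42 ± 0.124 (SE, 95% interval 0.13 to 0.70), with a limma adjusted p of 0.260, so it was not called. On recovered reads with trimmed mean scaling the Gtse1 estimate was 0.20, and on recovered reads without it no gene of the set, Gtse1 included, had an unadjusted p under 0.05. Nusap1, a spindle-associated protein, had the widest spread of the set, with 12923, 4515 and 8311 after tamoxifen, against 6491, 1489 and 18061 in untreated cells. The untreated values differed by 12.1-fold among themselves, and the interval of -1.43 to 2.41 allows a large change in either direction. Nusap1 overlaps Oip5 on the opposite strand and an rRNA gene copy on its own strand, and the counting rule is not given in the sources used here. Tpx2, an activator of Aurora A, and Hmmr, a spindle pole protein, had overlapping groups with estimates of -0.09 and 0.04.

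**Figure D5:**
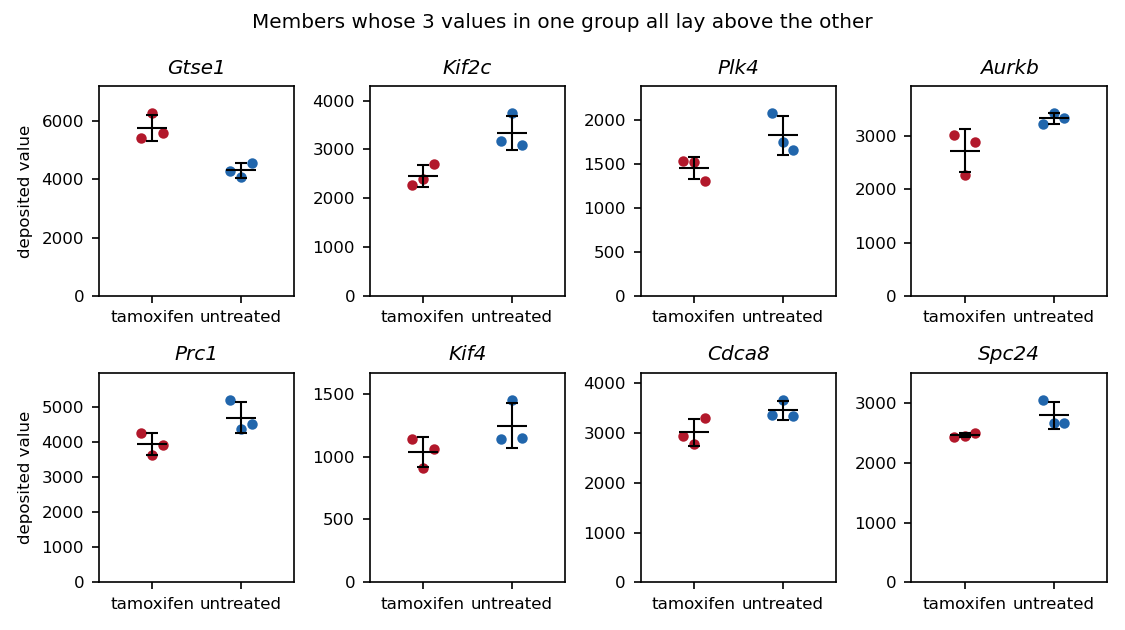
Deposited values of the 8 genes whose groups did not overlap, in order of unadjusted p, with tamoxifen left (red) and untreated right (blue). Points are libraries, and bars are mean ± SD (n = 3 each) on axes that start at 0. Gtse1 is higher after tamoxifen and the other 7 are lower, with Kif4 separated by less than 1 unit, in effect a tie.

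All 4 cytokinesis genes had estimates below 0, and 1 was separated (25%, against 8.89% of all genes with tamoxifen lower). On recovered reads 2 of 4 were below 0, and 3 of 4 were below the median of all genes. Once those reads had trimmed mean scaling, 3 of 4 were below 0. Prc1, which bundles the central spindle (chromosome 7, 80294450 to 80316259, plus strand), had 4272, 3639 and 3912 after tamoxifen, against 5207, 4380 and 4514 in untreated cells. All tamoxifen values were lower (log2 fold change -0.25, 95% interval -0.56 to 0.05, limma adjusted p 0.502). Ect2, the exchange factor that activates RhoA at the furrow, had 6559, 11463 and 10802 after tamoxifen, against 14792, 14062 and 10411 in untreated cells. Its estimate of -0.47 was the lowest of the set, the groups overlapped, and the interval ran from -1.04 to 0.10. Racgap1, the partner of Kif23 in centralspindlin, and the scaffold Anln, anillin, had estimates of -0.09 and -0.05.

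Among the 6 condensation genes, several values stood apart in untreated replicate 1. Top2a had 48424, 42759 and 42760 after tamoxifen, against 94346, 42760 and 50272 in untreated cells. Untreated replicate 1 stood apart on this scale (log2 fold change -0.40, 95% interval -1.09 to 0.30, limma adjusted p 0.647). The near-equal values of 42759 and 42760 come from a list of values that all libraries nearly share. They do not measure agreement in reads. Without untreated replicate 1 the Top2a estimate was -0.057. Ncapd2 had 42759, 29427 and 36094 after tamoxifen, against 23599, 55839 and 55837 in untreated cells, here with untreated replicate 1 the lowest. Smc2, a core ATPase of condensin, had 4048, 2550 and 3144 after tamoxifen, against 5450, 2550 and 2179 in untreated cells, with untreated replicate 1 again the highest. Ncaph, the kleisin of condensin I, had 1956, 2462 and 2005 after tamoxifen, against 2822, 2336 and 2257 in untreated cells, and the groups overlapped (-0.21, interval -0.56 to 0.15). Ncapg and Smc4, the other condensin subunits in the set, had estimates of 0.00 and -0.11.

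Fold changes of genes with and without the promoter elements were set side by side, and their difference was not tested. The 28 tested genes with a CHR element had a median log2 fold change of -0.02 with 15 below 0. The 12 with a window but neither CHR sequence had a median of -0.15 with 7 below 0. The 27 tested genes with a CCAAT box had a median of -0.01 and the 13 without one -0.14. The 24 with both elements in 1 window had a median of -0.01, and the other 16 had -0.15.

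Other genes of mitosis, in 7 lists that complete the pathway, also held no call. Of their 112 tested genes 0 were called by limma, with a median log2 fold change of -0.03 and 60 below 0. At an unadjusted p under 0.05 there were 3 higher and 10 lower, where 6.85% and 5.12% of all genes tested were higher and lower. Without overlap 5 were higher (4.46%, against 9.49% of all genes) and 15 lower (13.4%, against 8.89%). The anaphase promoting complex had 18 genes with a median of -0.14, the inner and outer kinetochore 29 tested with -0.04, and the DREAM and MuvB complex 12 with -0.07. Condensin II had 3 genes with 0.07, the Greatwall and PP2A-B55 switch 6 with -0.08, and other G2/M genes 31 with 0.04. Cohesin, the ring that holds sister chromatids, had 14 genes with a median of -0.05. On recovered reads, with all genes at 0.25, the medians of the 5 lists below 0 stood between 0.12 and 0.30. Its regulator Pds5a had 5450, 5644 and 5722 after tamoxifen, against 8797, 8437 and 7861 in untreated cells (log2 fold change -0.58, limma adjusted p 0.136). The acetyltransferase Esco2 followed at -0.52 (limma adjusted p 0.212), while 8 of the 14 estimates in all were below 0. Outside cohesin, Ckap5, with overlapping groups, and Cenpi, without overlap, had estimates of -0.71 and -0.70 (limma adjusted p 0.319 and 0.241). The 3 higher genes at an unadjusted p under 0.05 were Zwint, Kif18b and Arhgap11a. Their estimates were 0.36, 0.39 and 0.37, without overlap (limma adjusted p 0.365, 0.397 and 0.414). Mki67, the proliferation marker Ki-67, had 3338, 3202 and 3971 after tamoxifen, against 6199, 1801 and 3220 in untreated cells, overlapping groups with untreated replicate 1 highest. Dlgap5, a spindle assembly factor singled out after its values were seen, had 2696, 170717 and 2258 after tamoxifen, against 3397, 2784 and 2588 in untreated cells, so a single library set its estimate of 1.80.

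Among brakes on the G2/M transition linked to p53, 3 of 8 tested genes were called higher and 0 lower, where 0.127% of all genes were called. These lists were drawn up with earlier results of the data known, so the count is a description. Plk2, a Polo-like kinase induced by p53, had 5244, 4291 and 4574 after tamoxifen, against 1235, 1440 and 1398 in untreated cells (log2 fold change 1.79, limma adjusted p 0.0109). Ccng1, cyclin G1, had 14421, 15316 and 13682 after tamoxifen, against 7094, 5080 and 4844 in untreated cells (log2 fold change 1.37, limma adjusted p 0.0485). Btg2, an antiproliferative cofactor, had 3745, 2704 and 3416 after tamoxifen, against 1351, 1274 and 1456 in untreated cells (1.26, limma adjusted p 0.0485). In all 3 genes every tamoxifen value exceeded every untreated one. None of the 3 was called when any single library was left out, and Ccng1 was not called on recovered reads (limma adjusted p 0.353). Cdkn1a, the Cdk inhibitor p21, had 3219, 1964 and 2958 after tamoxifen, against 1186, 671 and 1749 in untreated cells, without overlap but not called (1.25, limma adjusted p 0.238).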

How the data were processed

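Total RNA of 6 libraries, 3 tamoxifen and 3 untreated, was analysed from 1 deposited table of 22933 genes. Its values are a normalized signal made by the authors and not counts. The submitters' processing notes name TopHat2, bedtools, DESeq2 and the build mm9, with no versions or roles. Annotation, strand setting and counting rule are not given in the sources used here. Each deposited signal above 0 has the form C × k × (m + 0.1) / (k + 0.1) with whole numbers k and m, and k was taken as the read count (recovered reads), an assumption that no label states. Exactly 1 solution existed for 98.8% of 100305 values. Sorted within each library, the m values differed between libraries by at most 4 at any rank. All 6 libraries thus held nearly the same list of values, given to different genes. Equal values in different libraries mark similar ranks and not equal reads. Trimmed mean scaling of the deposited values could therefore change little. No value of the set had more than 1 solution. Symbols and GRCm38 positions came from GENCODE by Ensembl identifier, and promoter windows from RefSeq.

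Log2(value + 1) was compared with limma 3.58.1 in R 4.3.3, with an expression trend, for 11847 genes with at least 10 recovered reads on average. P-values were adjusted over all of them by Benjamini-Hochberg. This minimum removes genes whose few reads carry large normalized values. The pseudocount shrinks the folds of low genes. Alternatives were another minimum or none, another pseudocount, trimmed mean scaling, recovered reads, a replicate block and leaving out each library. Python 3.11.15 did the rest. The fit was also run on simulated reads that gave every gene the same dispersion, so that run does not measure its power on these libraries. Values per library are given for genes whose groups did not overlap and, in each role, for those of smallest p and highest level per kilobase. A few more were added for their spread after their values were seen. From each other list the genes of smallest p were eligible for naming. The set and all lists were chosen with earlier results of these data known.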

Additional observations from a re-analysis of the deposited data

How the results depend on the processing

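The number of mitosis genes called was 0 under every alternative run. Over all genes the 15 calls became 34 with a minimum mean value of 10 in place of the read minimum, 52 with no filter, 5 with a pseudocount of 10, 8 on recovered reads with trimmed mean scaling (an alternative chosen after seeing the data) and 0 with the replicate block. They were 0 to 1 when a library was left out. Whether equal numbers pair the libraries was not settled. Deviations of same-numbered libraries correlated at -0.0021, -0.045 and 0.0072, and those of differently numbered libraries at -0.082 to 0.081. Such correlations cannot decide it, since an effect shared by a pair could be small or lost in normalization. With the replicate block the median of the set remained -0.09 and Ezh2 -0.60. The median of the set was 0.12 on recovered reads, where that of all genes was 0.25, and -0.14 to -0.02 when a library was left out. Signs of small estimates turned. On recovered reads Kif4 came to 0.24, Cdc25c 0.14, Wee1 0.13, Mybl2 -0.058 and Bub1 0.11. With trimmed mean scaling of those reads Ccnb2 came to -0.056, Mybl2 -0.33, Bub1b -0.21, Cdc20 -0.10, Aurka -0.21, Kif20a -0.073 and Cenpa -0.15. Leaving out libraries gave Aurka -0.12 to 0.14, Bub1b -0.11 to 0.16, Ccnb2 -0.029 to 0.23, Cdc25c -0.31 to 0.10, Cenpa -0.022 to 0.078, Mybl2 -0.079 to 0.090, Nusap1 -0.46 to 1.34 and Wee1 -0.37 to 0.062. Apart from what each alternative changes by construction, the cause was not tested. With 3 libraries a group and 2334418 to 5689696 reads each, changes under 2-fold in single genes were often not detectable. Larger ones could be missed too. Cdkn1a, at 2.38-fold, and the endoderm marker Gata4, at 2.69-fold, were not called (limma adjusted p 0.238 and 0.0895).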
